A study of Mus musculus with 11 samples.

Results

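The genes described here are the metallothionein genes Mt1 and Mt2 and the zinc regulators Mtf1 and Slc30a1, taken by gene identifier from a table of exon reads of 13088 genes and a table of 5867 upstream antisense RNAs (uaRNAs). Of the 4 listed genes, 3 had a row in each table; Mtf1 was matched to no row and is not analysed here. Mt2 was selected on its measured uaRNA reads, which were higher after Zc3h4 siRNA, so its difference between the groups is given as a description with no test, in both tables. The other genes were listed for what they do, but with earlier results of these libraries known.

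Metallothioneins are small cysteine-rich proteins that bind zinc, copper and cadmium. Their genes are switched on by MTF1, a zinc finger transcription factor that binds metal response elements in promoters when zinc is plentiful. MTF1 also activates Slc30a1, which encodes a transporter that exports zinc across the plasma membrane. A uaRNA is a short-lived transcript that leaves a promoter in the direction opposite to its gene. Restrictor, a complex of ZC3H4 with WDR82, ends transcription of such noncoding RNAs early.

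Nascent RNA was measured by TT-seq, in which RNA made during exposure to 4-thiouridine (4sU) is fragmented, biotinylated and pulled down. The siZC3H4 libraries came from wild-type F121-9 mouse embryonic stem cells, a female line of CAST/129 hybrid background, that received 30 nM of an siRNA against Zc3h4 (replicates 2 and 3). Their controls were the same cells with 30 nM of a non-targeting siRNA (siNT, replicates 1, 2 and 3). Both groups grew without serum, with LIF and inhibitors of MEK and GSK3, took up 4sU (500 µM) during 20 minutes and were harvested 47 hours after transfection. The labels name a single line and do not say whether replicates were separately grown cultures, so p-values measure only the spread between these samples, which may be technical. Samples of cells with a degradable ZC3H4, treated with dTAG-13 or DMSO, are not analysed here.

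All values are reads over a depth factor that the authors set per library. Whole reads recovered from them totalled 16173640 to 26548710 over exons in the siZC3H4 libraries and 14840637 to 18479834 in the siNT libraries, and 1448879 to 2648683 against 996927 to 1195995 over uaRNAs. Exon reads of Zc3h4, the siRNA target, were 7285 and 6718 in the libraries labelled siZC3H4 and 3465, 3610 and 3363 in the siNT libraries. Nascent Zc3h4 reads thus rose (log2 1.01 ± 0.11 SE, limma adjusted p = 0.00431), which does not settle whether the mature mRNA fell as the label would have it, so directions are those of libraries labelled siZC3H4. The call was lost without siNT replicate 1 (limma adjusted p = 0.0557) and without siZC3H4 replicate 2 (0.0569).

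The 5 stem cell markers Pou5f1, Nanog, Sox2, Zfp42 and Esrrb summed to 40168 and 46588 exon reads in the libraries labelled siZC3H4 and to 42129 to 48928 in the siNT libraries. Of these markers 0 passed the test, by which 2.22% of all tested genes rose and 0.144% fell. Of 6 fibroblast or feeder markers, Fn1 and Thy1 had rows, and summed to 28045 and 29757 reads against 27917 to 32853, nearly all of them from Fn1. Col1a1, Col1a2, Col3a1 and Postn were matched to no row. Of 6 markers of primitive or visceral endoderm, a tissue in which metallothioneins are high, Gata4 and Gata6 had rows, with summed reads of 66 and 108 against 26 to 87. Sox17, Afp, Ttr and Apoa1 were matched to no row. In bulk samples like these, fewer cells of a type and less RNA per cell cannot be told apart.

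Mt2 and Mt1 lie in a row on the plus strand of chromosome 8 (positions in mm10). The gene table places Mt2 (ENSMUSG00000031762) at 94172784 to 94173568 and Mt1 (ENSMUSG00000031765) at 94179241 to 94180327, with transcript lengths of 391 and 390 bases. RefSeq's promoter starts on GRCm38.p6, the assembly that mm10 denotes, lie 166 and 152 bases further upstream, at 94172618 and 94179089, which are 6471 bases apart. The RefSeq gene record of Mt1 reaches further still, to 94178883. Antisense transcription from the Mt1 promoter therefore runs towards the end of Mt2, 5521 bases away. From the Mt2 promoter it runs towards Mt3, whose annotated end is 18472 bases away. RefSeq also lists a lncRNA, Gm39227, on the minus strand at 94166124 to 94171655, starting 963 bases upstream of the Mt2 start and running the same way as the Mt2 uaRNA. The limits of the uaRNA regions are not given in the files, so whether the Mt2 uaRNA row includes reads of Gm39227, which has no row of its own here, was not tested.

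**Figure D1:**
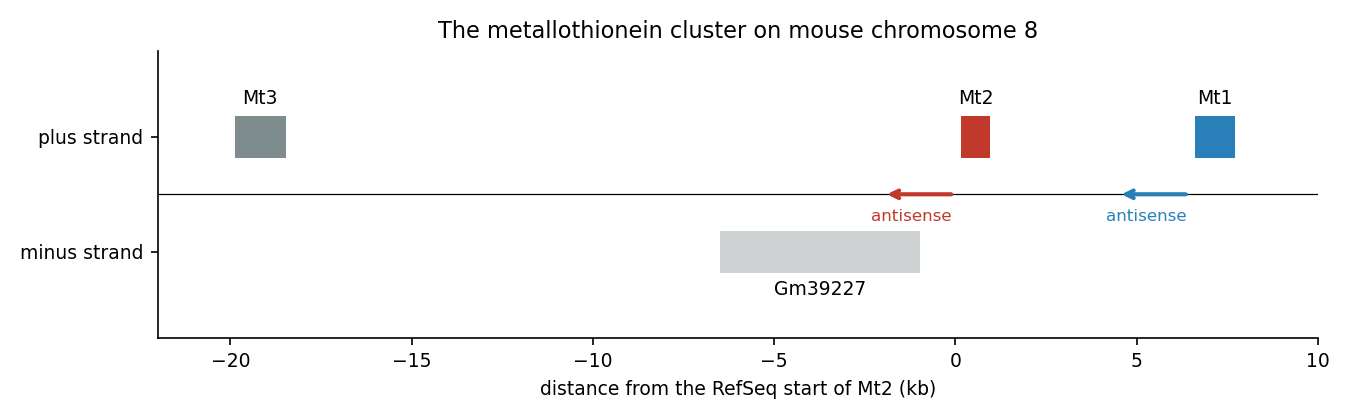
Map of the metallothionein cluster, with distance in kb from the RefSeq start of Mt2 on the x axis and strand on the y axis. Boxes are annotated genes, and arrows show only the direction of antisense transcription from each start, not its length; Mt1 antisense transcription points at Mt2, and Gm39227 starts 963 bases upstream of Mt2 on the minus strand.

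Slc30a1 (ENSMUSG00000037434) lies on the plus strand of chromosome 1 at 191906787 to 191913247, with a transcript length of 5224 bases. Its first 802 bases overlap the lncRNA 1700034H15Rik, which runs on the minus strand from 191907588 to 191899970. Whether the Slc30a1 uaRNA row includes reads of this lncRNA, which starts inside the gene and runs antisense to it, was not tested. Mt1 and Mt2 are close paralogs, and no source used here says how reads that match both were counted.

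The promoters are shown because they carry the letters that MTF1 is known to recognise. Each run is the plus strand, 250 bases directly upstream of the RefSeq start (GRCm38.p6), at chr8:94172368-94172617 for Mt2, chr8:94178839-94179088 for Mt1 and chr1:191906531-191906780 for Slc30a1, with capitals at metal response element cores.
Mt2: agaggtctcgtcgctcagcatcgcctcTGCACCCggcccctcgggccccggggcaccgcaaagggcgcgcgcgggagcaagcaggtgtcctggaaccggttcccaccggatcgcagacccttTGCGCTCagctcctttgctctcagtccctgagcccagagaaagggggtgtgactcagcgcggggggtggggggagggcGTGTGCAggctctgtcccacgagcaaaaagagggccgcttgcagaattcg
Mt1: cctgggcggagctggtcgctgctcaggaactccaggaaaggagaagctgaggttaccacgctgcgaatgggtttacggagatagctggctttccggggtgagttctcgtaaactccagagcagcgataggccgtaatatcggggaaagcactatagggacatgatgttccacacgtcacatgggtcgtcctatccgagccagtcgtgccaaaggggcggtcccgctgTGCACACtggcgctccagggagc
Slc30a1: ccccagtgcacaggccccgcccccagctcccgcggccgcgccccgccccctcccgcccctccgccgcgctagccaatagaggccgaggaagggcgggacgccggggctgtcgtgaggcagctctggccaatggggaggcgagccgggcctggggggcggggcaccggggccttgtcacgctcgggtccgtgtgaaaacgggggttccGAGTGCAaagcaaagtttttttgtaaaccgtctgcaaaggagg

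The core was searched as TGCACNC or TGCGCNC on both strands of RefSeq windows that add 50 bases after the start to these 250. Mt2 held 4 cores, at -223 to -217, -128 to -122, -50 to -44 and 5 to 11 from its RefSeq start. Mt1 held 3, at -23 to -17, 3 to 9 and 21 to 27, of which the one at 3 to 9 overlaps a GC box (GGGCGG, either strand). Slc30a1 held 2, at -43 to -37 and 31 to 37. Of 32851 RefSeq windows of the same length, 25.7% held at least 1 core, 1.97% at least 3 and 0.517% at least 4. Among 5978 windows matched by symbol to 4695 of 5866 uaRNA host symbols these shares were 38.7%, 3.86% and 1.09%. Since the gene table starts Mt2 and Mt1 further downstream, the bases directly before those starts lie outside the windows.

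Other short sequences were looked for in the same windows. The GC box occurred 0 times in Mt2, 3 times in Mt1 and 5 times in Slc30a1, and 66.7% of host windows held at least 1. TATAAA on the sense strand was in none of the 3 windows and in 3.93% of host windows. For Mt2 and Mt1 the bases directly before the gene table's starts were not searched, so a TATA box or other site there would be missed. On the antisense strand, which the uaRNA copies, none of the 3 windows held GGTAAG, the core of a strong 5′ splice site, or AATAAA, the commonest poly(A) signal. Host windows held these in 2.63% and 5.00% of cases. GC content over the 300 bases was 67.7% for Mt2, 60.7% for Mt1 and 73.0% for Slc30a1, against a median of 62.0% over host windows.

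The Mt2 uaRNA was several-fold more abundant after Zc3h4 siRNA, while sense reads of Mt2 were not higher. Its uaRNA had 1068 and 1218 depth-normalized reads in the libraries labelled siZC3H4, against 257, 153 and 283 in the siNT libraries. Both siZC3H4 libraries lay above every siNT library, but Mt2 was chosen for this rise, so the separation is no evidence of its own. The means were 1143 ± 106 (SD, n = 2) and 231 ± 68.9 (SD, n = 3), a 5.09-fold difference (log2 2.35 ± 0.23 SE). That value ranked 82nd among 5124 tested uaRNAs, of which 229 were at least 4-fold higher. Because the rule chose Mt2 for this value, nothing is read from it. For comparison, 73.7% of all tested uaRNAs were higher in both siZC3H4 libraries than in every siNT library, and the median log2 fold change of all was 0.88. With scalings taken from the uaRNAs alone, the Mt2 value was log2 1.46 by the median of ratios and 1.78 by equal totals. The median of all tested uaRNAs was log2 0.0078 by the first and 0.32 by the second, so only the first centres them.

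The Mt1 uaRNA, 6471 bases downstream along the same strand, did not share a change of that size. It had 209 and 279 reads in the libraries labelled siZC3H4, against 185, 139 and 253 in the siNT libraries. The groups overlapped, since siNT replicate 3 lay above siZC3H4 replicate 2. The difference did not pass the test (log2 0.37 ± 0.25 SE, limma adjusted p = 0.195), with a 95% interval from 0.91-fold to 1.84-fold. Among all tested uaRNAs 62.1% rose and 1.13% fell. Relative to the median uaRNA the Mt1 uaRNA lay at log2 -0.51, so its sign turned when the table was scaled on itself (log2 -0.52 by the median of ratios, -0.20 by equal totals), without passing the test.

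Within each library the uaRNAs of the neighbouring metallothionein genes could be set against each other, which removes the depth factor. The Mt2 uaRNA had 5.12 and 4.36 reads for each read of the Mt1 uaRNA in the libraries labelled siZC3H4, against 1.39, 1.10 and 1.12 in the siNT libraries. Control cells thus had nearly as many reads in the Mt1 region as in the Mt2 region, and the ratio did not overlap between the groups. Since the Mt2 uaRNA chose the gene, this ratio is a description. The region lengths are not given, so it does not compare levels per base.

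The Slc30a1 uaRNA had the most reads of the 3 uaRNAs in each siNT library. It had 590 and 423 reads in the libraries labelled siZC3H4, against 474, 387 and 333 in the siNT libraries. The groups overlapped, because siNT replicate 1 lay above siZC3H4 replicate 3. The difference did not pass the test (log2 0.34 ± 0.23 SE, limma adjusted p = 0.178), with a 95% interval from 0.927-fold to 1.73-fold. Its sign turned under the scalings taken from the uaRNAs alone (log2 -0.55 by the median of ratios, -0.23 by equal totals), where it did not pass the test either. The overlapping lncRNA 1700034H15Rik had 97.9 and 88.0 exon reads against 159, 124 and 117. It was lower in both siZC3H4 libraries, as in 12.8% of all genes, but did not pass the test (log2 -0.50 ± 0.23 SE, limma adjusted p = 0.333).

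**Figure D2:**
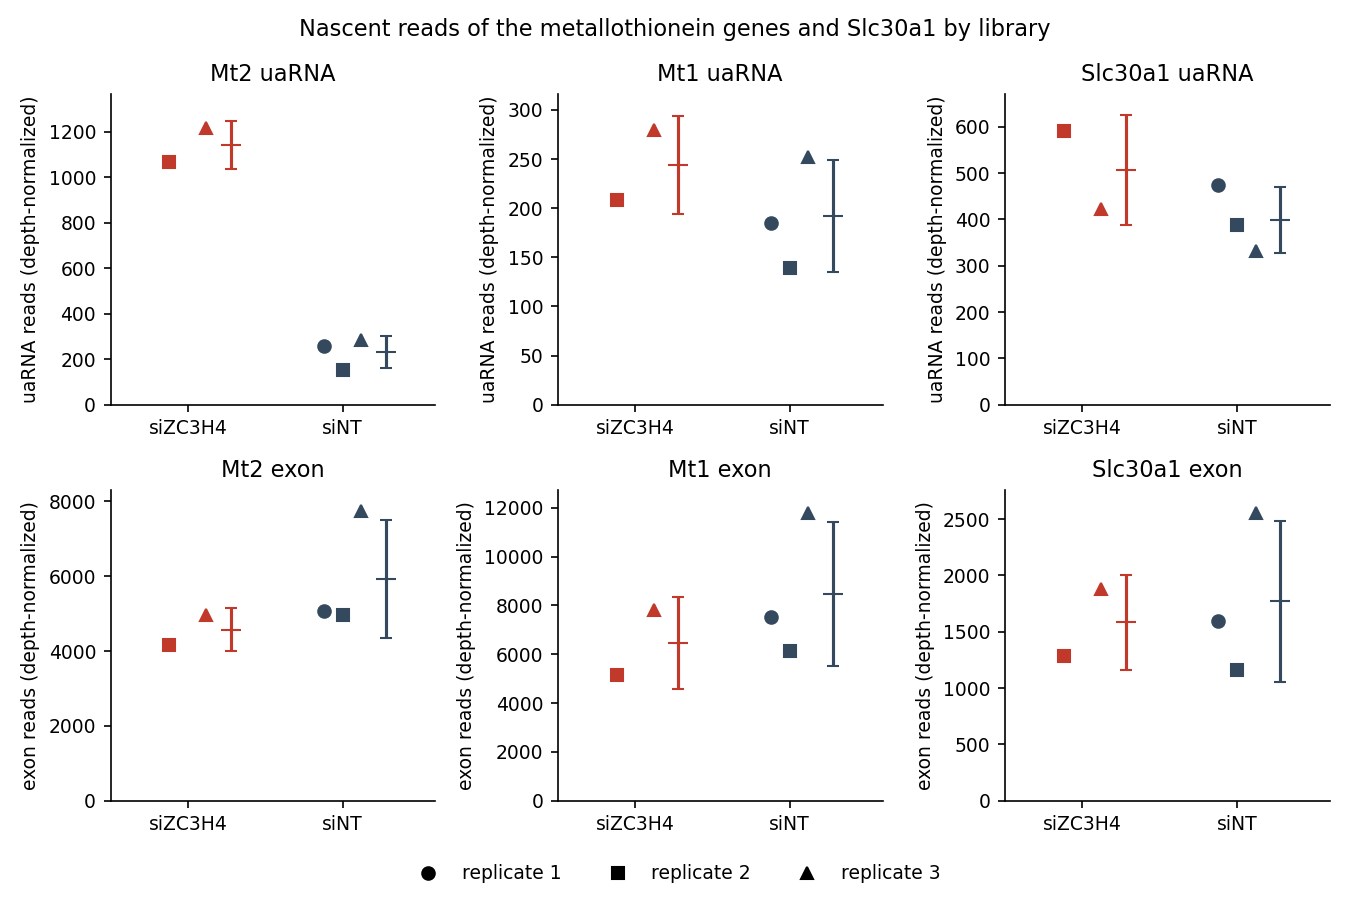
Depth-normalized uaRNA reads (top) and exon reads (bottom) of Mt2, Mt1 and Slc30a1 on the y axes, by siRNA group on the x axes; each symbol is a library, and the bar is the mean with its SD (n = 2 siZC3H4, n = 3 siNT). The Mt2 uaRNA lies at 1068 and 1218 in siZC3H4 libraries and at or below 283 in siNT libraries, while the groups overlap in the other 5 panels.

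Sense reads of both metallothionein genes were high. Per kb of transcript, Mt1 had 13164 and 19993 exon reads in the libraries labelled siZC3H4 and 15708 to 30220 in the siNT libraries. Mt2 had 10667 and 12727 reads per kb against 12681 to 19782. By their mean level per kb in siNT libraries, Mt1 and Mt2 ranked 30th and 62nd among 12482 tested genes, and Slc30a1, with 246 and 360 against 222 to 489 reads per kb, ranked 4381st. The level of Slc30a1 per kb was thus far below that of the metallothioneins, while Mt1 and Mt2 overlapped in their levels across libraries. Within every library, though, Mt1 exceeded Mt2, by 1.23 and 1.57 times against 1.48, 1.24 and 1.52 times in exon reads over transcripts of nearly equal length. Mt1 had 3.99 and 4.15 exon reads for each exon read of Slc30a1, against 4.71, 5.29 and 4.61, groups that did not overlap, while the same ratio for Mt2 was 3.24 and 2.65 against 3.18, 4.28 and 3.03 and overlapped. These ratios are between reads, not per length, and were not tested. How often such ratios separate for other gene pairs was not counted. Of single genes, 12.8% were lower in both siZC3H4 libraries than in every siNT library.

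Exon reads of Mt2 were 4171 and 4976 in the libraries labelled siZC3H4, against 5077, 4958 and 7735 in the siNT libraries. The groups overlapped narrowly, with siZC3H4 replicate 3 just above siNT replicate 2. The log2 fold change was -0.35 ± 0.19 SE, which is not tested here, since it comes from the contrast that chose the gene. It was -0.14 without siNT replicate 3, the highest library, and -0.47 without siZC3H4 replicate 3.

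Exon reads of Mt1 were 5134 and 7797 against 7534, 6126 and 11786. Here too the groups overlapped and siNT replicate 3 stood highest. The difference did not pass the test (log2 -0.37 ± 0.26 SE, limma adjusted p = 0.597), and its 95% interval ran from 0.514-fold to 1.17-fold. Without siNT replicate 3 it was log2 -0.10, and without siZC3H4 replicate 2 it was -0.07. It was larger without siNT replicate 2 (log2 -0.57) and without siZC3H4 replicate 3 (log2 -0.67), and negative whichever library was left out.

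Exon reads of Slc30a1 were 1286 and 1879 against 1599, 1159 and 2556. The lowest and the highest library were both siNT libraries, so the groups overlapped entirely. The difference did not pass the test (log2 -0.11 ± 0.29 SE, limma adjusted p = 0.928), with a 95% interval from 0.586-fold to 1.46-fold, and its sign turned without siNT replicate 3 (0.19) or siZC3H4 replicate 2 (0.16). Of all tested genes, 2.22% rose and 0.144% fell, and the median log2 fold change was 0.01.

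All 3 genes varied widely among the control libraries. The SD of log2 exon reads between siNT libraries was 0.482 for Mt1, 0.361 for Mt2 and 0.573 for Slc30a1, against a median of 0.186 over 12482 genes. That spread exceeded the spread of 92.2%, 83.4% and 95.4% of genes. In each of the 3 genes siNT replicate 3 was the highest library and siNT replicate 2 the lowest of the siNT libraries. The highest library exceeded the lowest of all 5 by 2.30 times for Mt1, 1.85 times for Mt2 and 2.21 times for Slc30a1. The uaRNAs of Mt1 and Mt2 had the same order of siNT libraries, with SDs of 0.428 and 0.475 against a median of 0.280 over uaRNAs. That of Slc30a1 ran otherwise, with siNT replicate 1 the highest and replicate 3 the lowest, and an SD of 0.255.

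Antisense reads were then set against sense reads of the same gene within each library. Mt2 had 25.6 and 24.5 uaRNA reads per 100 exon reads in the libraries labelled siZC3H4, against 5.06, 3.09 and 3.66 in the siNT libraries. The uaRNA-to-exon balance of Mt2 did not overlap between the groups, although it varied among the siNT libraries, and the change of its uaRNA exceeded that of its exons by log2 2.69 ± 0.31 SE, a value given without a test. Among 5106 genes with both features tested, that ranked 25th, and 70.0% of them did not overlap in this direction. Since the Mt2 uaRNA chose the gene, neither the separation nor the rank is evidence of its own.

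Mt1 had 4.07 and 3.58 uaRNA reads per 100 exon reads against 2.46, 2.27 and 2.14. The Mt1 ratio did not overlap between the groups either, although neither its uaRNA nor its exon reads separated them alone. The uaRNA change exceeded the exon change by log2 0.74 ± 0.32 SE, which missed the threshold (limma adjusted p = 0.0636) and passed it with a pseudocount of 5 (0.0446). Over all genes tested in this way 53.9% had a uaRNA change above the exon change by limma and 1.23% a change below it, and 70.0% did not overlap in that direction, with a median difference of log2 0.87, so the Mt1 value lay below the median.

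Slc30a1 had 45.9 and 22.5 uaRNA reads per 100 exon reads against 29.6, 33.4 and 13. The groups overlapped, and replicate 3 was the low library in each. The uaRNA and exon changes differed by log2 0.45 ± 0.40 SE, short of the threshold (limma adjusted p = 0.342). That difference was -0.06 without siZC3H4 replicate 2.

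**Figure D3:**
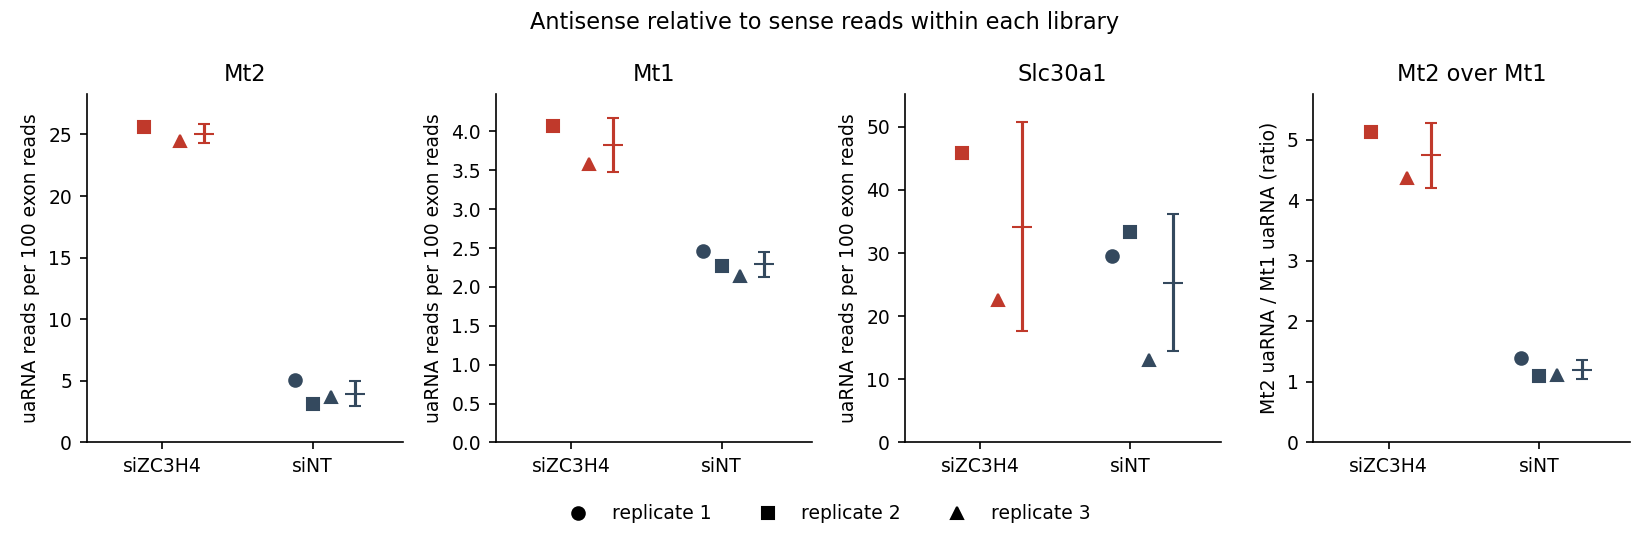
uaRNA reads per 100 exon reads of Mt2, Mt1 and Slc30a1, and the ratio of Mt2 to Mt1 uaRNA reads, on the y axes by siRNA group on the x axes; symbols are libraries and bars are means with SD (n = 2 siZC3H4, n = 3 siNT). Mt2 separates at 24.5 and above in siZC3H4 libraries from 5.06 and below in siNT libraries, Mt1 at 3.58 and above from 2.46 and below, and Slc30a1 overlaps.

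**Figure D4:**
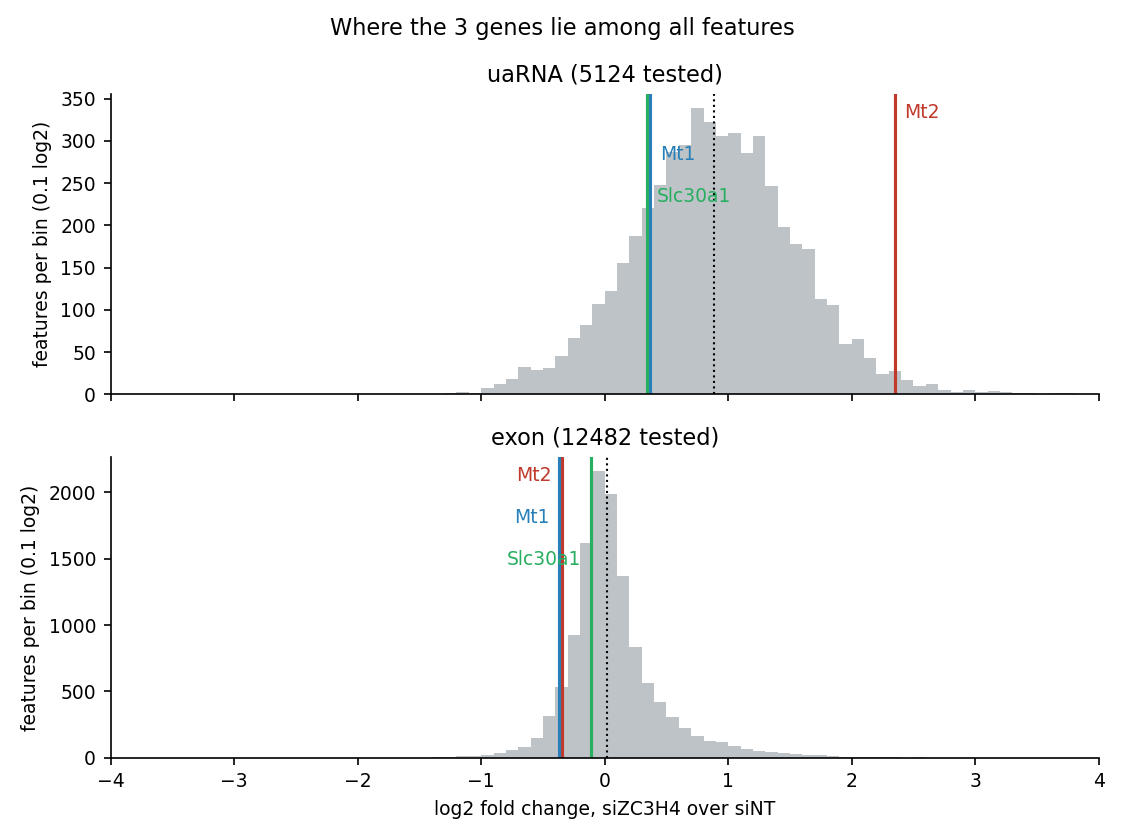
Histograms of log2 fold changes, siZC3H4 over siNT, on the x axis, of 5124 uaRNAs (top) and 12482 genes (bottom), with the number of features per bin on the y axis; coloured lines mark Mt2, Mt1 and Slc30a1 and the dotted line the median. The Mt2 uaRNA lies at 2.35, right of the uaRNA median of 0.88, the Mt1 and Slc30a1 uaRNAs at 0.37 and 0.34 lie left of it, and all 3 genes lie left of the exon median of 0.01.

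Mt1 and Mt2, with spans of 1087 and 785 bases, are short uaRNA hosts. Of 179 uaRNAs whose host spans under 2 kb in the gene table, 160 were tested, of which 74 (46.2%) rose and 8 fell, with a median log2 fold change of 0.62. Over all uaRNAs 62.1% rose and 1.13% fell, with a median of 0.88. Within that group the Mt2 value ranked 7th, which is no evidence of its own, since Mt2 was chosen for this value. The hosts with the uaRNAs most like that of Mt2, by the root mean square difference of centred log2 values over the 5 libraries, were Ccl27a, a chemokine gene (0.14), Inpp5d, which encodes the inositol phosphatase SHIP (0.145), Amotl2, an angiomotin family gene (0.15), Cd80, a costimulatory ligand gene (0.16), and Otud7b, a deubiquitinase gene (0.19). The Inpp5d uaRNA, for example, had 458 and 456 reads against 122, 76.5 and 124. Since Mt2 was chosen for the rise of its uaRNA, the uaRNAs most like it share that rise by construction. For exon reads of Mt1 the closest genes were Glipr2, Pla2g4f, Akap12, Klf4 and Arl14ep, at 0.05 to 0.07, and for Mt2 they were Uchl3, Arxes2, Srsf12, Nipsnap2 and Fam189b, at 0.02 to 0.05. Klf4, a naive pluripotency factor, had 3836 and 5973 exon reads against 6035, 5237 and 9507, with siNT replicate 3 highest as in Mt1.

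Genes of the same neighbourhood were examined next. Mt3, the brain metallothionein, had 7.92 and 11.5 exon reads against 8.00, 24.4 and 23, close to the minimum for testing, without passing (log2 -0.74 ± 0.52 SE, limma adjusted p = 0.585). Mt4 was matched to no row. Bbs2, which encodes a subunit of the BBSome that carries cargo into cilia, lies on the minus strand, 74242 bases beyond the Mt2 start in the direction of its uaRNA. Bbs2 exon reads were 233 and 203 against 100, 133 and 124, higher in both siZC3H4 libraries than in every siNT library, as in 19.5% of all genes. They missed the threshold (log2 0.88 ± 0.21 SE, limma adjusted p = 0.0693), and passed it without siNT replicate 3 (0.0233) and in DESeq2 (0.0133). The Bbs2 uaRNA had 92.8 and 93.7 reads against 134, 49.6 and 53.8, which missed the threshold (log2 0.39 ± 0.31 SE, limma adjusted p = 0.269), with a sign that turned with scalings taken from the uaRNAs alone (log2 -0.49 by the median of ratios). Without siNT replicate 1, its highest library, it passed the test (log2 0.84, limma adjusted p = 0.035).

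Nup93, a nuclear pore scaffold gene on the other side of the cluster, had 2594 and 2211 exon reads against 2452, 2999 and 2195 (log2 -0.08 ± 0.15 SE, limma adjusted p = 0.896). The Nup93 uaRNA rose, with 61.7 and 45.9 reads against 19, 14.8 and 19.6 (log2 1.54 ± 0.37 SE, limma adjusted p = 3.84e-04). Scaled by the median of ratios it no longer passed (0.121). Beside Slc30a1, the centrosomal kinase gene Nek2 had 2878 and 3058 exon reads against 3729, 3347 and 3600 (log2 -0.26 ± 0.11 SE, limma adjusted p = 0.314). Traf5, an adaptor of TNF receptors, had 28.9 and 39.2 against 28, 34.8 and 48.6. Nek2 was lower in both siZC3H4 libraries than in every siNT library, as in 12.8% of all genes. Traf5 overlapped, and neither gene passed the test.

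Zinc transporters were described over exon and uaRNA reads. Exporters of the Slc30 family move zinc out of the cytosol, and importers of the Slc39 family move it in. Of 8 exporters tested over exons, Slc30a1 included, 0 rose and 0 fell in limma, with a median log2 of -0.18 and 1 above 0. Of 10 importers 0 rose and 0 fell, with a median of -0.10 and 3 above 0. Over all genes 2.22% rose, 0.144% fell and 52.5% lay above 0, so counts of 0 in lists this short say little. Slc30a2, which loads zinc into vesicles, had 954 and 1018 exon reads against 1342, 1070 and 1535, lower in both siZC3H4 libraries (log2 -0.40 ± 0.16 SE, limma adjusted p = 0.280), as in 12.8% of all genes. Slc30a5, of the secretory pathway, had 972 and 1333 against 1030, 1210 and 1410. Slc39a7, which releases zinc from the endoplasmic reticulum, had the most reads of the importers, 2832 and 2901 against 3468, 3621 and 3641 (log2 -0.32 ± 0.11 SE, limma adjusted p = 0.187). Those groups did not overlap either, but the difference did not pass the test. Slc39a1 had 923 and 756 against 948, 911 and 756, and Slc39a9 had 728 and 939 against 894, 890 and 1006, both with overlapping groups.

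Antisense reads were measured for fewer transporters. Of 3 exporter uaRNAs tested 1 rose, and of 4 importer uaRNAs 3 rose, against 62.1% of all uaRNAs. The uaRNA of Slc30a9, a mitochondrial zinc transporter gene, rose, with 107 and 53.5 reads against 35.0, 34.8 and 30.7 (log2 1.16 ± 0.33 SE, limma adjusted p = 0.00236), but not without siZC3H4 replicate 2 (0.203). The uaRNA of Slc39a4, the intestinal importer of dietary zinc, rose to 719 and 639 reads in the libraries labelled siZC3H4, against 296, 200 and 335 in siNT libraries (log2 1.32 ± 0.23 SE, limma adjusted p = 2.76e-06). That of Slc39a14, which also carries iron and manganese, had 67.4 and 50.7 reads against 8.00, 20.0 and 23.9 (log2 1.83 ± 0.39 SE, limma adjusted p = 8.25e-05). That of Slc39a13 had 354 and 278 against 211, 186 and 162 (log2 0.76 ± 0.24 SE, limma adjusted p = 0.00592), and its call was lost without siZC3H4 replicate 2 (0.112). All 4 calls were lost, and the Slc39a13 sign turned, with the table scaled by the median of ratios. By that scaling 536 of the 5124 tested uaRNAs rose, against 3180 without it.

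Of the other genes that MTF1 is known to regulate in mouse cells, 4 of 5 were tested over exons. In limma 0 rose or fell, against 2.22% and 0.144% of all genes, with a median log2 of -0.06. Gclc, which encodes the catalytic subunit of the enzyme that starts glutathione synthesis, had 1217 and 1467 reads against 1361, 1848 and 1584. Csrp1 and Selenow, a LIM protein and a selenoprotein gene, had 998 and 998 against 870 to 1132 and 710 and 659 against 667 to 864. The Csrp1 uaRNA rose, with 74.1 and 83.2 reads against 36.0, 22.6 and 35.0 (log2 1.33 ± 0.33 SE, limma adjusted p = 5.08e-04), but not when scaled by the median of ratios (0.250). In these lists the exon counts at an unadjusted p under 0.05 were 2 of 8 exporters, 1 of 10 importers and 0 of 4 targets, against 15.3% of all genes. In each of these 3 lists edgeR and DESeq2 called 0. Of all 12482 genes edgeR called 345 higher and 19 lower, and DESeq2 529 higher and 146 lower.

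**Figure D5:**
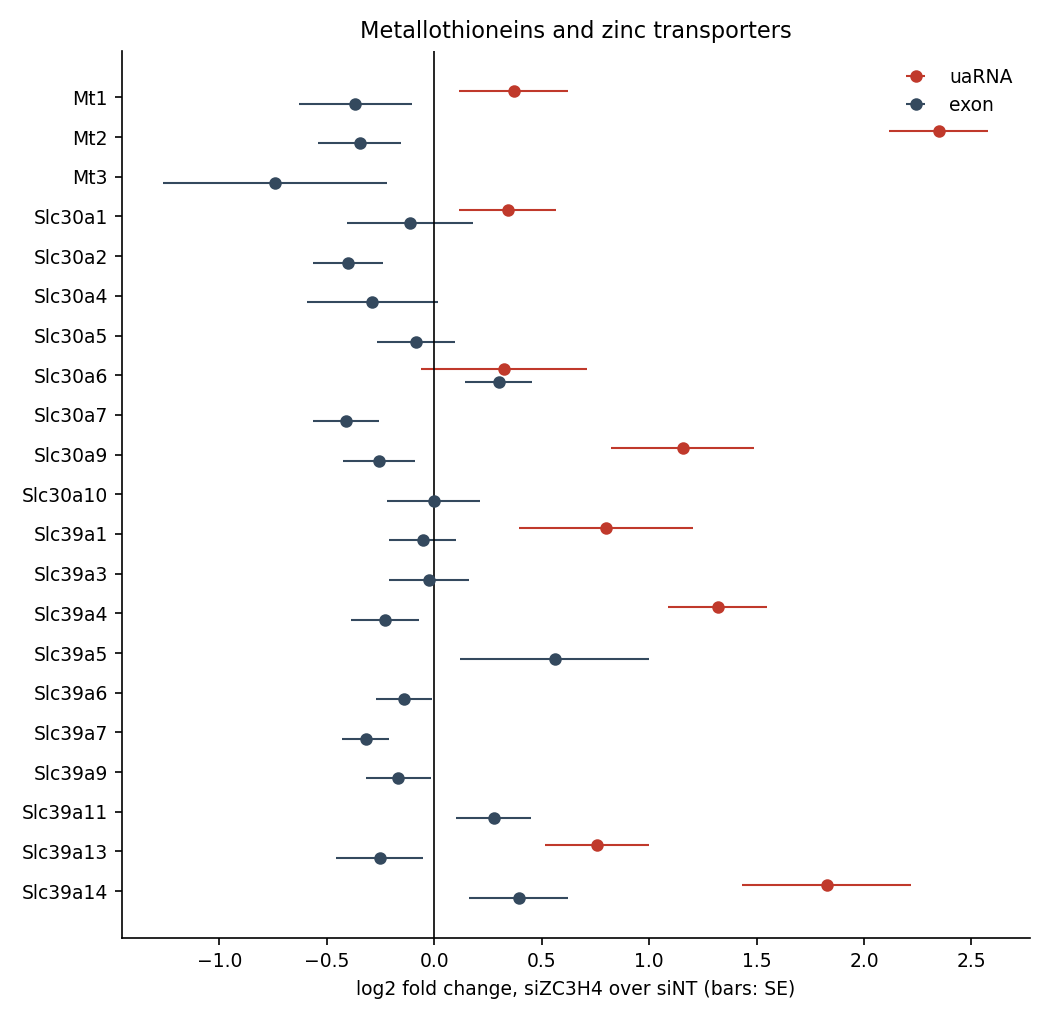
Log2 fold changes, siZC3H4 over siNT, on the x axis for uaRNA and exon reads of metallothionein, Slc30 and Slc39 genes on the y axis, with limma's SE as bars. uaRNA points lie right of 0 for each gene that has one, as do 91.5% of all tested uaRNAs. They run from 0.33 to 2.35, the value for which Mt2 was chosen. Exon points lie between -0.74 and 0.56 on both sides of 0.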

How the data were processed

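TT-seq of F121-9 cells gave 2 siZC3H4 and 3 siNT libraries. Per the submitters' processing notes, the authors used cutadapt 1.14, STAR, featureCounts and DESeq2 with builds mm10 and dm6, with no role stated for each. The deposited values of siNT replicate 1 are whole-number counts. The deposited values of the other libraries are a depth-normalized signal per uaRNA or gene, and 100% of them gave whole reads (within 0.01) when multiplied by a factor of 1.046 to 1.767. No source used here says what the authors took these factors from. Other deposited columns hold transcript lengths and coordinates. No per-sample column was left out (0 unused).

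Values were tested as log2(value + 1) with limma 3.58.1 in R 4.3.3 over all features with a mean of at least 10 over the 5 libraries, with Benjamini-Hochberg adjustment and a threshold of 0.05. A fold change on this scale understates that of low features. Since whole reads were recovered, edgeR 4.0.16 and DESeq2 1.42.0 were run as alternatives. edgeR's quasi-likelihood test called 3251 uaRNAs higher and 63 lower, and 345 and 19 genes. Other alternatives were a pseudocount of 5, no filter, 2 scalings of each table on itself, each library left out and a replicate block. Replicates of each group differed beyond sampling noise (chi-square over degrees of freedom at least 5.13).

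Members and gene lists were chosen with earlier results of these data known. Of each list, genes past the threshold and the 3 with most exon reads are named, with genes of the neighbourhood within 100 kb and the 5 most alike in pattern. Promoter sequences are from RefSeq (GRCm38.p6).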

Additional observations from a re-analysis of the deposited data

How the results depend on the processing

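With 2 libraries labelled siZC3H4, leaving out either left 1, which was assumed to vary like the siNT libraries. Where a direction turned or a call changed, the cause was not tested. The uaRNA values depend most on the scaling, since 3 alternatives scale the uaRNA table on itself. In DESeq2, by the median of ratios and by equal totals, log2 fold changes were 1.43, 1.46 and 1.78 for the Mt2 uaRNA, -0.53, -0.52 and -0.20 for Mt1 and -0.56, -0.55 and -0.23 for Slc30a1. Under these 3 settings 481, 536 and 1257 uaRNAs rose and 587, 590 and 319 fell. DESeq2 called 529 genes higher and 146 lower over exons, and 29 fell by the median of ratios. With no filter 34 uaRNAs fell, and over exons 38 genes rose and 0 fell in limma. With a pseudocount of 5 the Mt1 uaRNA change exceeded the exon change by log2 0.73 and passed the threshold.

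Leaving out each library gave log2 values from 2.08 to 2.52 for the Mt2 uaRNA, -0.47 to -0.14 for its exons and 2.54 to 2.89 for their difference. The ranges were 0.16 to 0.59, -0.67 to -0.066 and 0.64 to 0.83 for Mt1, and 0.10 to 0.58, -0.38 to 0.19 and -0.060 to 0.97 for Slc30a1. The Slc30a1 exon value turned without siNT replicate 3 (0.19) and without siZC3H4 replicate 2 (0.16). Between 1824 and 3119 uaRNAs rose and 17 to 88 fell. Over exons 2 to 677 genes rose, the fewest without siNT replicate 1 and the most without siNT replicate 3, and 0 to 137 fell. Differences that rose numbered 926 to 2695, and 17 to 69 fell.

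The groups share the replicate numbers 2 and 3 only, too few to call the samples paired. Deviations of same-numbered libraries correlated across features (r of 0.376 and 0.426 for uaRNAs, 0.528 and 0.618 for exons). With 2 libraries labelled siZC3H4, deviations from their mean mirror each other, so both values for each kind of read rest on the same siZC3H4 difference. With the replicate block, which leaves siNT replicate 1 without a partner, 1530 of 12482 genes rose and 830 fell over exons. Mt1 exon reads fell by 0.43 on the log2 scale with the block (limma adjusted p = 0.00109). The Mt2 exon value was -0.44. Over exons the block also called 2 of 8 exporters, 1 of 10 importers and 1 of 4 MTF1 targets, beside those 1530 and 830 of all 12482 genes. Among them were Slc30a2 (limma adjusted p = 0.00358), Slc39a7 (0.00686) and Gclc (0.00535). It also called Mt3 over exons (0.034), and Bbs2 over exons (0.000399) and uaRNA (0.0127).

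Of the other named genes, exon values turned in some setting that leaves out a library, with ranges of -0.21 to 0.10 for Atox1, -0.076 to 0.11 for Csrp1, -0.043 to 0.056 for Fkbp5, -0.31 to 0.023 for Fth1, -0.22 to 0.36 for Klf9, -0.19 to 0.046 for Nup93, -0.31 to 0.14 for Slc30a5, -0.20 to 0.089 for Slc39a1, -0.35 to 0.016 for Slc39a9, -0.14 to 0.12 for Sod1, -0.32 to 0.11 for Traf5 and -0.23 to 0.12 for Txnrd1. With the replicate block they turned for Fkbp5 (-0.037), Klf9 (-0.031), Slc39a1 (0.0094) and Sod1 (0.011). In DESeq2 and by the median of ratios they turned for Csrp1 (-0.026 and -0.025) and Fkbp5 (-0.031 and -0.034), and uaRNA values turned for Bbs2 (-0.63 and -0.49, and -0.18 by equal totals), Sgk1 (-0.033 and -0.026), Slc39a13 (-0.15 and -0.13) and Srxn1 (-0.20 and -0.18).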

Other observations

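Lists beside zinc were described in the same way. Over all features tested by limma, 62.1% of uaRNAs rose and 1.13% fell, and over exons 2.22% of genes rose and 0.144% fell, with 15.3% of genes at an unadjusted p under 0.05. Over exons edgeR called 345 of 12482 genes higher and 19 lower, and DESeq2 529 higher and 146 lower. Of 5124 uaRNAs, 536 rose and 590 fell by the median of ratios, and 481 rose and 587 fell in DESeq2. Of 9 genes of copper handling tested over exons, 0 rose and 0 fell in limma, with a median log2 of -0.06, 1 gene at an unadjusted p under 0.05, and 0 called by edgeR or DESeq2. The cytosolic superoxide dismutase gene Sod1 had 4394 and 3673 exon reads in the libraries labelled siZC3H4, against 4128, 4112 and 3867 in the siNT libraries. The copper chaperone gene Atox1 had 1222 and 988 against 987, 1421 and 1066, and Slc31a1, the main copper importer gene, had 796 and 1045 against 1141, 950 and 1300. All 3 overlapped between the groups. Of 4 uaRNAs 1 rose, against 62.1% of all, that of Slc31a2, with 72.4 and 50.7 reads against 17.0, 16.5 and 10.2 (log2 2.01 ± 0.38 SE, limma adjusted p = 1.21e-05), also called by DESeq2 and with the table scaled by the median of ratios.

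Of 11 genes of iron handling and oxidative stress 0 rose and 0 fell over exons in limma, with a median log2 of -0.11, 0 at an unadjusted p under 0.05, and 0 called by edgeR or DESeq2. The ferritin light chain gene Ftl1 had 15055 and 16335 exon reads against 16483, 14923 and 19598, Txnrd1, a thioredoxin reductase gene, had 4633 and 5890 against 4906, 5250 and 6203, and the ferritin heavy chain gene Fth1 had 4209 and 3352 against 4186, 4126 and 4120. Of 7 uaRNAs 5 rose, those of Hmox1, Nqo1, Gclm, Srxn1 and Ftl1, which is near the 62.1% of all uaRNAs. With the table scaled by the median of ratios 2 were called, where 536 of all 5124 rose and 590 fell. The Srxn1 call (limma adjusted p = 0.0439) was lost without siNT replicate 2 (0.139), siNT replicate 3 (0.0668), siZC3H4 replicate 2 (0.282) or siZC3H4 replicate 3 (0.0614), and with no filter (0.072). The Hmox1 uaRNA, whose gene encodes heme oxygenase, had 160 and 134 reads against 36.0, 31.3 and 64.8 (log2 1.78 ± 0.31 SE, limma adjusted p = 2.14e-06). The Gclm uaRNA had 190 and 150 against 54.0, 34.8 and 56.3 (log2 1.81 ± 0.29 SE, limma adjusted p = 6.39e-07). The Nqo1 uaRNA had 2264 and 2510 against 1159, 1028 and 1306.

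Of 6 glucocorticoid targets 0 rose and 0 fell over exons in limma, with a median log2 of 0.01, 0 at an unadjusted p under 0.05, and 0 called by edgeR or DESeq2. Sgk1, a kinase gene, had 10124 and 9338 exon reads against 10772, 12553 and 11515, lower in both siZC3H4 libraries, as in 12.8% of all genes. Of 4 uaRNAs 3 rose, those of Sgk1, Dusp1 and Klf9, near the 62.1% of all uaRNAs. With the table scaled by the median of ratios 1 was called, where 536 of all 5124 rose and 590 fell. The Dusp1 uaRNA, whose gene encodes a phosphatase of MAP kinases, had 276 and 275 reads against 85.0, 58.3 and 93.9 (log2 1.82 ± 0.27 SE, limma adjusted p = 8.03e-08).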
